A study of Solanum lycopersicum with 30 samples.

Results

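The genes described here are 150 tomato genes (Solanum lycopersicum), chosen out of 34429 gene models with Solyc identifiers. Their read counts were lowest under drought relative to watered plants in the leaf veins and in the tissue between them. Genes that exceeded the watered level by a set margin in both tissues after rewatering were left out beforehand. Counts were expressed as CPM (a count relative to the total count of its library), and r was the log2 ratio of the mean CPM + 1 of drought or recovered plants to that of watered plants. The 1925 genes with an r of 0.5 or more in both tissues after rewatering were dropped, the rest were ranked by the higher of their vein and intervein r under drought, and the lowest 150 were taken. The drought values, and the exclusion after rewatering, therefore chose these genes and are given below as descriptions.

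RNA was measured in 30 libraries, 3 in each of 10 groups. Leaf 4 was dissected into vein-enriched and intervein tissue at T0 (25 days after sowing, watered), at T1 (29 days after sowing, either watered or left for 6 days without water) and at T2 (3 days after watering resumed, recovered plants beside plants watered throughout). Counted back from T1, the 6 days without water reach to before T0, although the T0 libraries are labelled watered. Plants grew in 300 g of soil with a day of 16 h of light and 8 h of dark, and watered plants received 150 mL at each watering. The labels name neither a cultivar nor a transgene, the 3 libraries of a group came from separate plants, and the vein samples were enriched for vein tissue by dissection rather than purified.

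A leaf that loses water closes its stomata, the pores for gas exchange, largely through the hormone abscisic acid, and it slows growth and photosynthesis. Many genes that serve growth and photosynthesis are transcribed less during that time, and in many plants their transcripts return after water does. Veins hold the xylem, which brings water, and the phloem, which exports sugar, while the tissue between them is mostly photosynthetic mesophyll. In bulk tissue of this kind, fewer cells of a type and less RNA per cell cannot be told apart. The table of counts gives a UniProt entry for each of the 150 identifiers but no gene name, and none matched the reference table of genes used here, so no role is given to any of them and only a few identifiers are printed.

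Total counts per library ran from 2718799 to 13641845. The tissue of each library was checked with the 699 genes higher in vein and the 852 higher in intervein among the T0 libraries alone, a set chosen on these samples that held 26 and 3 of the 150 genes. The score, the mean log2 level of the first set minus that of the second, lay between 0.699 and 2.06 in 13 of the 15 vein libraries and between -4.13 and -2.44 in 14 of the 15 intervein libraries. The library labelled vein T2 recovered 2 scored -3.14, within the intervein range, and the library labelled intervein T2 recovered 1 scored 0.49, near the vein range. Both were left out by the rule for the genes and by the count test, and their values are given beside the T2 results. Vein T1 drought 2 scored -0.54, between the tissues, and was kept.

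Together the 150 genes made up a much smaller part of the RNA under drought, and most of their summed level was regained after rewatering. The sum follows the abundant genes most. Solyc06g076140 alone held between 9.92% (intervein T0 watered 3) and 44.9% (intervein T1 drought 3) of it. The 10 highest genes of a library held 64.4% and 58.9% in the recovered vein libraries used, and 61.1% and 66.5% in the recovered intervein ones. In watered vein at T1 their summed level was 20783, 19859 and 15397 CPM, and under drought it was 3033, 1832 and 3345 CPM. In watered intervein at T1 the sum was 9627, 9845 and 7458 CPM, and under drought it was 1458, 1310 and 995 CPM. The drought libraries lay far below every watered library of the same tissue, which the choice of genes fixed in advance. The sums also differed between tissues, with watered T1 vein at 18680 ± 2881 CPM and watered T1 intervein at 8977 ± 1320 CPM (SD, n = 3 each).

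At T0 the sum was 19266, 7550 and 16310 CPM in vein and 4325, 3766 and 4585 CPM in intervein. Every vein library at T0 lay above every intervein library, although vein T0 watered 2 was well below the other vein libraries. That library was the lowest of its group for 114 of the 150 genes (76%), against 46.6% of the 16001 genes with a mean of at least 1 CPM in the watered T1 groups of both tissues. Those 16001 genes serve below as the reference for ratios of levels.

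At T2 the sum in watered vein was 15760, 14227 and 8602 CPM, and in recovered vein it was 18597 and 15686 CPM. In watered intervein it was 8708, 6744 and 4174 CPM, and in recovered intervein it was 5847 and 7466 CPM. The recovered sums overlapped the watered ones in both tissues. Relative to watered T1, the median gene of a library regained less than the sum did. In intervein it was at 20.1, 18.9 and 18.4 CPM in watered T1 and 0, 2.83 and 0.967 CPM under drought. Recovered intervein was at 9.18 and 10.7 CPM, below each watered T1 library but among the watered T2 ones (18.8, 11.1 and 6.03 CPM). In vein the median gene was at 36.8, 44.3 and 20.7 CPM in watered T1 and 21.7 and 26.3 CPM when recovered. The sum was 4334 CPM in the library labelled vein T2 recovered 2 and 12511 CPM in the one labelled intervein T2 recovered 1. With all 3 libraries the recovered mean was 12872 ± 7536 CPM in vein and 8608 ± 3476 CPM in intervein, against 17141 ± 2058 and 6656 ± 1145 CPM without these libraries (SD, n = 2).

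**Figure D1:**
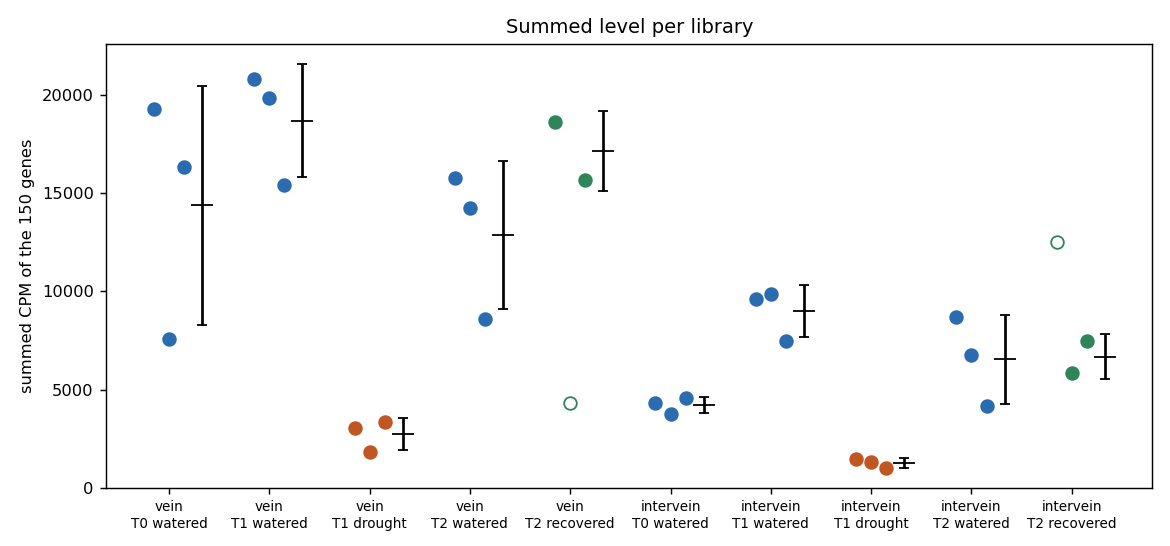
Summed CPM of the 150 genes in each of the 30 libraries (points, watered in blue, drought in orange, recovered in green), with the mean and SD of each group in black and the pair of libraries left out as open symbols, which do not enter the mean. All 3 drought libraries of vein (1832 to 3345 CPM) and of intervein (995 to 1458 CPM) lie below every other library of their tissue used here.

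Under drought the median r of the 150 genes was -2.65 in vein, with a range of -6.73 to -2.01, and -2.55 in intervein, with a range of -5.02 to -2.01. The reference genes had a median r of -0.03 in vein and 0.02 in intervein. The lowest 2 by rank were Solyc05g014000, with a rank value of -5.02, and Solyc04g009640, at -4.33. The threshold cut through a continuous series of values. The last genes inside it had rank values of -2.0098 (Solyc10g009150) and -2.0078 (Solyc05g050830), and the first outside had -2.0077 (Solyc07g040890) and -2.0015 (Solyc02g022850).

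The separation of single libraries was as follows. In vein, 121 of the 150 had all 3 watered T1 libraries above all 3 drought libraries, against 6.82% of all 34429 gene models. In intervein 113 did, against 5.36%, and 102 did in both tissues, against 2.11%. In neither tissue did 18 of the genes separate the groups. For some genes the watered mean rested on a single library: 1 of the 3 watered T1 libraries held over 80% of the sum for 12 genes in vein and 15 in intervein. The rule used these libraries, so nothing is read from these shares.

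Levels under drought were often near the limit of counting. The median of the genes' mean levels was 37.4 CPM in watered and 3.91 CPM in drought vein at T1, and 21.5 and 2.27 CPM in intervein. In drought vein 15 of the 150 had 0 counts in all 3 libraries, which for a group allows up to 3 counts, and in drought intervein 18 did. None had 0 counts in all 3 watered T1 libraries of a tissue. The number of the genes with at least 1 count was 71 in intervein T1 drought 1, 126 in intervein T1 drought 2 and 97 in intervein T1 drought 3, and it was 105, 125 and 124 in the vein T1 drought libraries. Over all rows, 13740, 19203 and 18002 were detected in the intervein drought libraries in the same order, so intervein T1 drought 1 was the lowest on both measures.

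**Figure D2:**
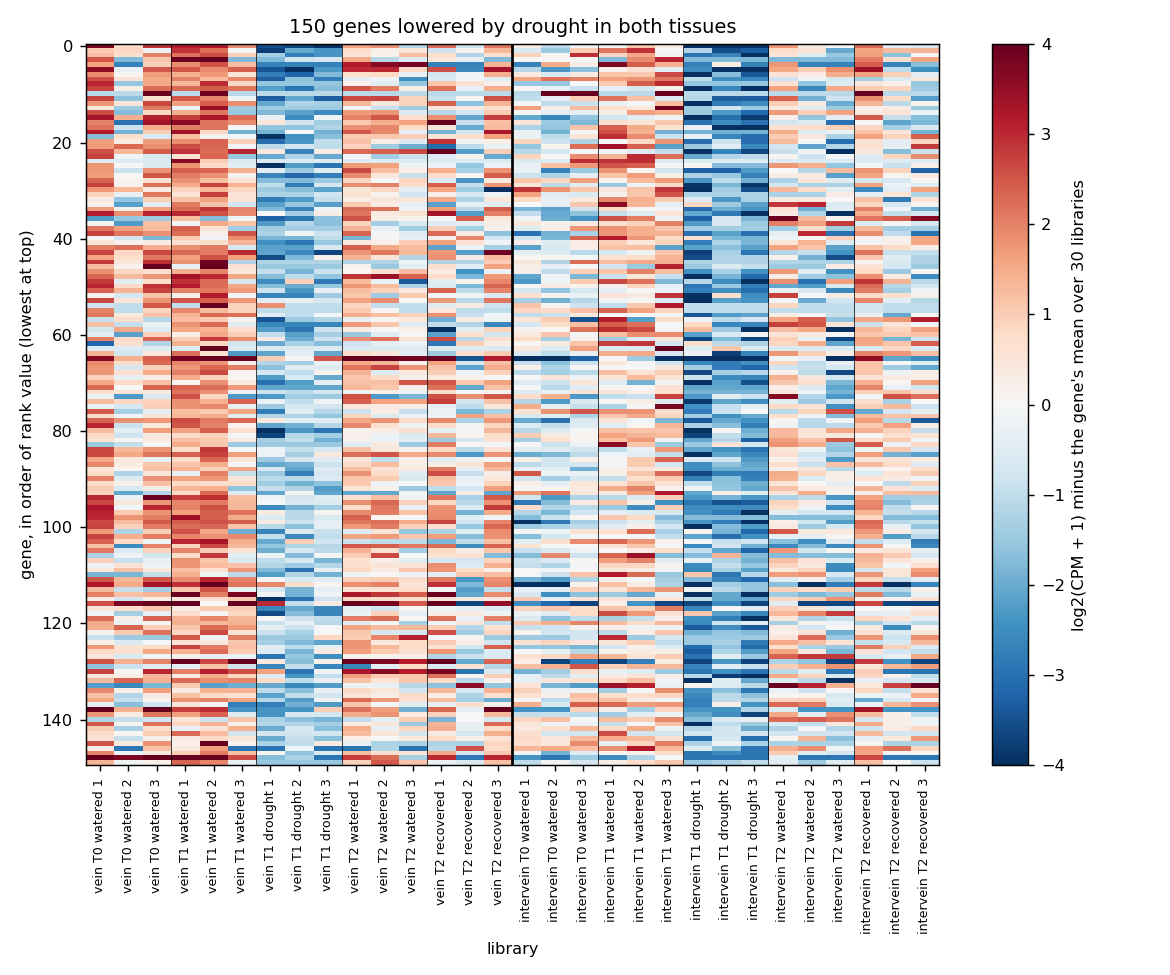
Level of each of the 150 genes (rows, in order of rank value) in each of the 30 libraries (columns, vein left of the thick line, intervein right), as log2(CPM + 1) minus the gene's mean over the 30 libraries, with red higher and blue lower. The 6 T1 drought columns are blue through most rows, and the column of the library labelled intervein T2 recovered 1 is redder than the other recovered intervein columns.

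In the count test (edgeR's quasi-likelihood test with Benjamini-Hochberg adjustment over 19893 rows), all 150 genes were tested. The T1 libraries chose these genes, so the T1 calls describe the genes and test nothing about them, and nothing is read from the gap to the background. In vein 38 were called lower under drought at an adjusted p under 0.05, where 0.689% of all tested rows were called lower. In intervein 79 were called lower, against 3.68%. None was called higher, where 0.558% of all rows in vein and 2.57% in intervein were. Both tissues called 32, vein alone 6, intervein alone 47 and neither 65. The difference between the tissues' responses was called for 0 of the 150 by edgeR, as for 0 of all rows, with 4 higher and 3 lower in vein at an unadjusted p under 0.05, which 6.77% of all rows reached, and 1 called lower by DESeq2, which called 0.0848% of all its rows lower. Genes called in 1 tissue alone were therefore not shown to respond differently there. The vein count moved with single libraries. It was 14 without vein T1 watered 1, 19 without watered 2, 11 without drought 1, 7 without drought 2 and 20 without drought 3. The intervein count was 35 without intervein T1 watered 2, 43 without watered 3 and 27 without drought 3. With the libraries of the compared groups alone the intervein count was 0, and with totals alone it was 51. With all 30 libraries the vein count was 19, and DESeq2 called 102 in vein and 123 in intervein. When r was recomputed without vein T1 drought 2, the library between the tissues, all 150 vein values stayed at -1 or lower and 133 at -2 or lower. Without intervein T1 drought 1, all 150 intervein values stayed at -1 or lower and 121 at -2 or lower.

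Solyc05g014000 had the lowest rank value. In watered T1 vein it was at 204, 213 and 83.3 CPM, and under drought at 0.973, 0.766 and 0 CPM. In watered T1 intervein it was at 19.3, 47.8 and 27.6 CPM, and it had 0 counts in all 3 drought libraries. The groups did not overlap in either tissue, and the watered intervein mean was at least 233-fold higher than the limit that 3 counts over the drought group allow. These are the values by which the gene was ranked. At T2 it was at 67.7, 80.1 and 9.20 CPM in watered and 107 and 97.8 CPM in recovered vein, and at 75.0, 28.4 and 22.1 CPM in watered and 16.5 and 13.5 CPM in recovered intervein. The recovered libraries used were above the watered ones in vein and below them in intervein. The libraries left out went the other way, at 11.7 CPM in the one labelled vein and 111 CPM in the one labelled intervein. Neither difference was called.

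Solyc06g076140 had the highest CPM of the 150 in each of the 30 libraries, by counts and not per length. It was at 4573, 3252 and 5128 CPM in watered T1 vein and at 1106, 404 and 1219 CPM under drought. In intervein it was at 2066, 2444 and 2335 CPM when watered and at 312, 441 and 447 CPM under drought. Its drought libraries thus lay well below the watered ones but kept a high count. At T2 it was at 3873, 2562 and 2184 CPM in watered vein and 7183 and 4203 CPM in recovered vein. Both recovered libraries used were above all watered ones, whereas the one left out was at 1347 CPM, below all of them, and the difference was not called. In intervein it was at 1982, 2481 and 798 CPM when watered and 1856 and 2985 CPM when recovered, with the library left out at 1535 CPM, and these overlapped.

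The rule used no T0 library, so vein and intervein at T0 were compared for these genes on values outside it. The comparison was still not fully independent of the rule. The tissue score was lower in drought than in watered T1 vein, at 1.24, -0.54 and 1.08 against 1.98, 1.64 and 1.38. In T1 intervein the scores overlapped, at -3.6, -2.6 and -3.2 under drought and -2.6, -3.1 and -3.0 when watered. Whether vein content affected the choice of genes was not tested. The fit also took its spread from all groups. At T0, 23 of the 150 were higher in vein (15.3%), where 4.17% of all tested rows were, and 1 was higher in intervein (0.667%), where 6.16% were (edgeR, adjusted p under 0.05). Among the 17261 rows with an average level at or above that of the lowest of the 150, the shares were 4.76% and 7.1%. The median log2 fold change, vein over intervein, was 0.91 for the 150 against 0.06 for all tested rows, and 97 of the 150 (64.7%) were above 0 against 52.5%. A value of 1 or more was reached by 70 of them (46.7%, against 20.4%), and a value of -1 or less by 28 (18.7%, against 19.1%). In 53 of the 150 all 3 vein libraries lay above all 3 intervein libraries, where 10.8% of all gene models did, and in 6 the reverse held, where 5.41% did. These shares are over 34429 gene models, of which 19734 passed the filter of the count test, as all 150 did. The shares are thus not those of genes at like levels. They also use CPM scaled by totals, with which the median of all tested rows was 0.38, toward vein.

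Of the 23 vein-higher calls, 12 were made whichever of the 6 T0 libraries was left out, 16 when all 30 libraries entered, 22 with libraries scaled by their totals alone and 23 by DESeq2, which called 38 in all and 6.72% of all its rows in that direction. The number of calls in both directions fell from 24 to 12 without intervein T0 watered 2. Scaling by totals alone moved the median of all tested rows from 0.06 to 0.38 and that of the 150 from 0.91 to 1.34. Without vein T0 watered 1 the median of the 150 was 0.60, and without each of the other T0 libraries it was 0.77 to 1.10.

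Solyc10g009150 had the largest difference at T0 among the called genes. It was at 348, 99.3 and 288 CPM in vein and at 0.432, 0 and 1.72 CPM in intervein. The mean vein level was 342 times the intervein level, which rested on 18 counts, and the log2 fold change was 8.17 (SE 1.72, edgeR adjusted p = 0.00493). Here and below the SE was back-calculated from the test statistic and is approximate. Under drought its vein level was 1.3, 2.11 and 0 CPM, against 301, 254 and 45 CPM when watered, so no drought library came near a watered one. In T1 intervein it was at 0.311, 2.16 and 6.62 CPM when watered, on 65 counts, and had 0 counts under drought. Its rank value, set by intervein, thus rested on few counts. At T2 it was at 50.4, 34.6 and 1.96 CPM in watered vein and 4.78, 0 and 0 CPM in watered intervein. It had 0 counts in the 2 recovered intervein libraries used, 46.5 CPM in the library labelled intervein T2 recovered 1 and 0 in the library labelled vein T2 recovered 2. The kept recovered vein libraries were at 57.9 and 61.0 CPM.

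Solyc08g005800 had the next highest mean of the 150 at T1 when watered after Solyc06g076140, again by counts. At T0 it was at 1931, 433 and 1073 CPM in vein and 121, 79.7 and 138 CPM in intervein, a log2 fold change of 2.89 (SE 0.57, edgeR adjusted p = 0.00261). All vein libraries were above all intervein libraries. At T1 it was at 1765, 1603 and 1034 CPM in watered vein against 227, 246 and 190 CPM under drought, and at 271, 319 and 212 CPM in watered intervein against 16.5, 66.3 and 59.6 CPM under drought. Vein was above intervein without overlap in watered and in drought leaf alike.

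Solyc07g042520 was at 75.0, 179 and 309 CPM in vein and 1.3, 0.444 and 0 CPM in intervein at T0 (log2 fold change 7.90, SE 2.02, edgeR adjusted p = 0.0148). The tissues did not overlap, but the call was lost without intervein T0 watered 2 or 3. At T1 its vein levels overlapped, at 260, 12.1 and 461 CPM when watered and 104, 5.65 and 15.3 CPM under drought. Solyc10g054820 was the gene called higher in intervein, at 7.92, 10.4 and 3.67 CPM there and 1.19, 1.54 and 1.89 CPM in vein (log2 fold change -2.78, SE 0.84, edgeR adjusted p = 0.0373). The groups did not overlap, but the call was lost when any T0 library other than intervein T0 watered 3 was left out.

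**Figure D3:**
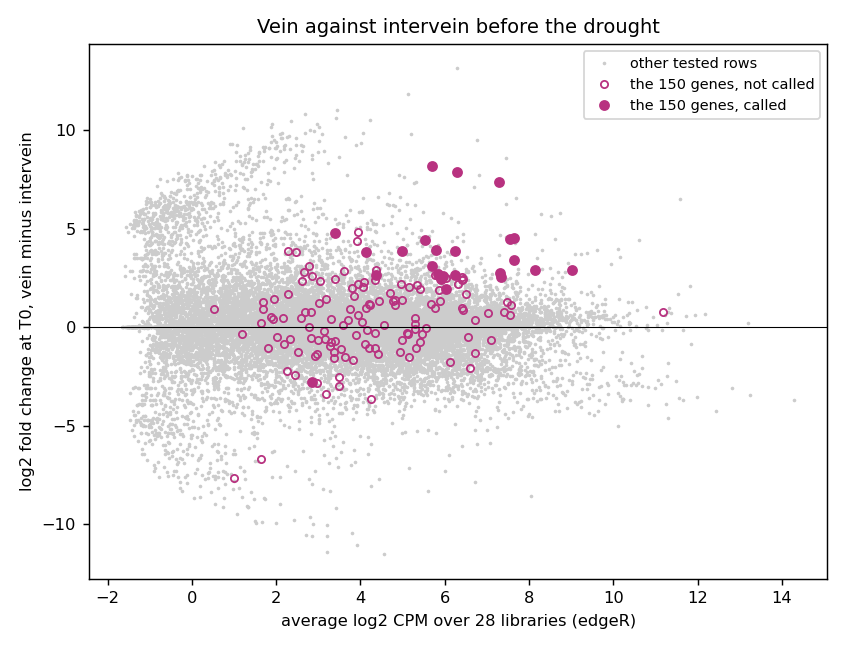
Log2 fold change of vein over intervein at T0 (vertical axis) against the average log2 CPM over the 28 libraries of the fit (horizontal axis) for every tested row (grey) and for the 150 genes (pink, filled where the edgeR adjusted p was under 0.05). The filled points are 23 genes above 0 and 1 below, and the open points lie on both sides of 0.

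The 23 genes higher in vein at T0 had a median of 173 CPM in vein and 12.2 CPM in intervein at T0, 167 and 31.4 CPM in watered leaf at T1, and 30.3 and 3.48 CPM under drought. The 126 genes not called at T0 had medians of 20.8 and 11.7 CPM at T0, 30.1 and 19.7 CPM in watered leaf at T1, and 3.08 and 2.04 CPM under drought. The rule held r at T1 low in both sets. The median r at T1 was -2.72 in vein and -2.48 in intervein for the 23, and -2.65 and -2.58 for the 126. At T2 the 23 had a median r of 0.41 in vein and -0.49 in intervein, and the 126 had 0.05 and -0.02. In recovered vein 9 of the 23 had an r of 0.5 or more and 0 had -0.5 or less, while in recovered intervein 1 and 11 did. Of the 126, 33 and 30 did in vein and 30 and 42 in intervein. These sets were formed after the values were seen and carry no test.

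In watered plants at T2 the tissues also differed for some of the genes. The count test (edgeR) called 11 higher in vein, where 1.66% of all tested rows were, and 0 higher in intervein, where 1.54% were. Higher in intervein at an unadjusted p under 0.05 were 7, where 18.6% of all rows reached that p in either direction. DESeq2 called 4 higher in intervein, as it did 3.75% of all its rows. The rule used these libraries through the exclusion at T2. The median log2 fold change was 0.55 for the 150 and 0.12 for all tested rows, and 123 of the 150 (82%) had the same sign as at T0, against 68% of all tested rows. Of the 23 called higher in vein at T0, 5 were called here too (21.7%, against 24.5% of all rows called so at T0). The median was 0.24 without vein T2 watered 1, 0.31 without intervein T2 watered 3 and 0.94 without intervein T2 watered 1. These calls were fragile: 1 of the 11 was made whichever library was left out, the count was 2, 1 and 7 without vein T2 watered 1, 2 and 3 and 1 and 2 without intervein T2 watered 2 and 3, and it was 0 with all 30 libraries. Solyc11g008780 was at 30.5, 30.2 and 23.7 CPM in watered T2 vein and at 0, 0.733 and 0 CPM in intervein (log2 fold change 6.17, SE 1.54, edgeR adjusted p = 0.0331). At T0 it was at 11.9, 0 and 21.8 CPM in vein and 7.77, 4.88 and 4.81 CPM in intervein, and the tissues overlapped.

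After rewatering the genes lay on both sides of the watered level, as the reference genes did. The exclusion used these T2 values to choose the 150 but was not applied to the reference genes. The values set beside each other here are therefore descriptions. In vein their median r at T2 was 0.18, from -3.50 to 2.23, with 42 at 0.5 or more, 31 at -0.5 or less and 77 between. In intervein the median was -0.16, from -3.23 to 3.20, with 31 at 0.5 or more, 54 at -0.5 or less and 65 between. The reference genes had medians of -0.21 and -0.34, with 19% at 0.5 or more and 31.7% at -0.5 or less in vein and 18.6% and 41.7% in intervein, where the shares of the 150 were 28% and 20.7%, and 20.7% and 36%. The quartiles were at -0.36 and 0.66 for the 150 and at -0.62 and 0.31 for the reference genes in vein, and at -0.89 and 0.40 and at -0.84 and 0.27 in intervein. By the rule none of the 150 was at 0.5 or more in both tissues, but 73 were in 1 tissue, so an absence of overshoot held for these genes only in that sense. Both tissues were between -0.5 and 0.5 for 27 genes, both were at -0.5 or less for 16, and the tissues went past these limits in opposite directions for others, of which 13 were higher in vein and lower in intervein and 6 the reverse.

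**Figure D4:**
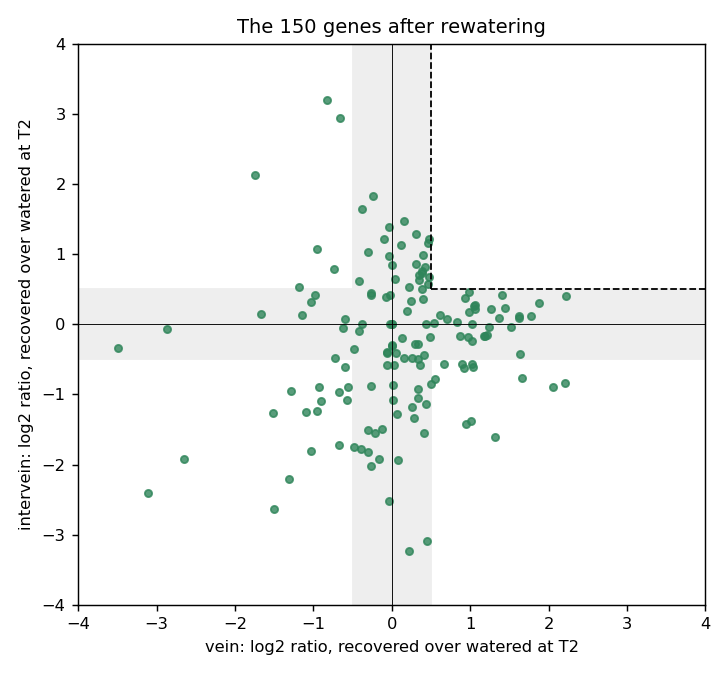
T2 log2 ratio (r) of recovered to watered plants for each of the 150 genes in vein (horizontal axis) and intervein (vertical axis), with the range of -0.5 to 0.5 shaded for each tissue and the dashed corner marking the region that the rule left empty. The points fill the other 3 quadrants and both shaded bands, from -3.50 to 2.23 in vein and from -3.23 to 3.20 in intervein.

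The count test called 0 of the 150 between recovered and watered plants in either tissue. In vein 0% of all tested rows were called either way, 4 of the 150 were higher and 1 lower at an unadjusted p under 0.05, which 10.8% of all rows reached, and 0 were called by DESeq2, which called 2.07% of all its rows either way. In intervein 0.312% of all rows were called higher and 0.266% lower, 6 of the 150 were higher and 5 lower at an unadjusted p under 0.05, which 16.5% of all rows reached, while by DESeq2 2 were called higher and 1 lower, against 5.11% of all its rows either way. Missing the threshold does not show that a gene had regained its watered level. The fitted median at T2 in intervein was 0.14 with TMM scaling, -0.16 with totals alone and 0.72 with all 30 libraries. It was 0.63 without intervein T2 watered 1, 0.01 without watered 2, -0.03 without watered 3, 0 without recovered 2 and 0.09 without recovered 3. Its sign thus depended on the scaling and on single libraries. The vein median was 0.40, 0.18 and 0.23 in the order of the settings above, and it was 0.63 without vein T2 watered 1, 0.18 without watered 3, 0.28 without recovered 1 and 0.12 without recovered 3. Totals alone moved the median of all tested rows to -0.21 in vein and -0.31 in intervein, from -0.02 and 0 with TMM.

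Against T0, recovered leaf was called different for 0 of the 150 in vein, where 0% of all rows were called, and for 0 in intervein, where 0.00503% of rows were called higher and 0.0603% lower. At an unadjusted p under 0.05, 2 were higher and 5 lower in vein and 6 higher and 10 lower in intervein, where 4.34% and 11.1% of all rows reached that p. DESeq2 called 0 in vein and 3 lower in intervein, where it called 0.191% and 1.64% of all its rows lower. The median log2 ratio of mean CPM + 1 to T0 was -0.12 in vein and 0.07 in intervein, with 60 and 80 of the 150 above 0. The reference genes had medians of 0.03 and -0.07. The exclusion used the recovered libraries, so the comparison of recovered leaf with T0 is a description. Missing the threshold does not show a return to the T0 level. Under drought the median ratio of the 150 to T0 was -2.29 and -1.68, with 2 genes above 0 in each tissue. The reference genes then had 0.05 and 0.14. Recovered leaf was above drought leaf for 142 genes in vein, by a median of 2.24, and for 134 in intervein, by a median of 1.79, where the reference genes had medians of -0.02 and -0.20. The drought libraries chose these genes, so the comparisons of drought leaf with T0 and with recovered leaf are descriptions. The difference between the tissues' responses at T2 was called for 0 of the 150 (edgeR, 0% of all rows, 2 higher and 3 lower in vein at an unadjusted p under 0.05, which 4.38% of all rows reached, DESeq2 0).

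Watered plants also changed with time. In intervein the genes were higher in watered leaf at T1 than at T0, with a median log2 ratio of 1.07 and 134 of 150 above 0, where the reference genes had 0.09. In vein the median was 0.46 with 114 above 0, where the reference genes had 0.07. From T1 to T2 the genes fell back in watered leaf, with medians of -0.76 in vein, where 22 were higher at T2, and -0.66 in intervein, where 38 were. The reference genes had medians of 0.15 and 0.16. Genes ranked on a low ratio to watered T1 leaf are more often ones that were high there, so these values are descriptions. In intervein the summed level in watered leaf at T1 (7458 to 9845 CPM) did not overlap that at T0 (3766 to 4585 CPM), whereas in vein the ranges overlapped.

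Single genes showed how differently the watered level was met after rewatering. Solyc02g064940, low at T2 in both tissues, was at 22.5, 36.4 and 14.1 CPM in watered and 0, 0 and 0 CPM in drought vein at T1. At T2 it was at 56.9, 81.2 and 90.4 CPM in watered and 0 and 15.8 CPM in recovered vein, with 0 in the library left out, so it stayed below all watered libraries. In intervein at T2 it was at 21.0, 0 and 0 CPM in watered and 0 and 1.00 CPM in recovered leaf, where the watered libraries were themselves mostly at 0 and the library left out was at 33.6 CPM.

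Solyc03g121420, high in vein and low in intervein at T2, was at 15.5, 20.9 and 23.1 CPM in watered and 174 and 16.9 CPM in recovered vein. A single recovered library made its vein ratio of 2.21, while the other lay among the watered ones and the library left out was at 3.19 CPM. In intervein it was at 3.68, 4.47 and 0 CPM in watered and 0.859 and 1.29 CPM in recovered leaf. These low values overlapped. Solyc05g052670, the reverse case, was at 4.05, 0.953 and 2.76 CPM in watered and 5.58 and 58.4 CPM in recovered intervein. Both recovered libraries were above the watered ones there, by very unequal amounts, and the library left out was at 12.1 CPM. In vein it was at 15.2, 2.20 and 1.17 CPM in watered and 0 and 6.12 CPM in recovered leaf, which overlapped. Neither gene thus showed a clear opposite response of the tissues. These 3 genes were chosen after their values were seen.

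**Figure D5:**
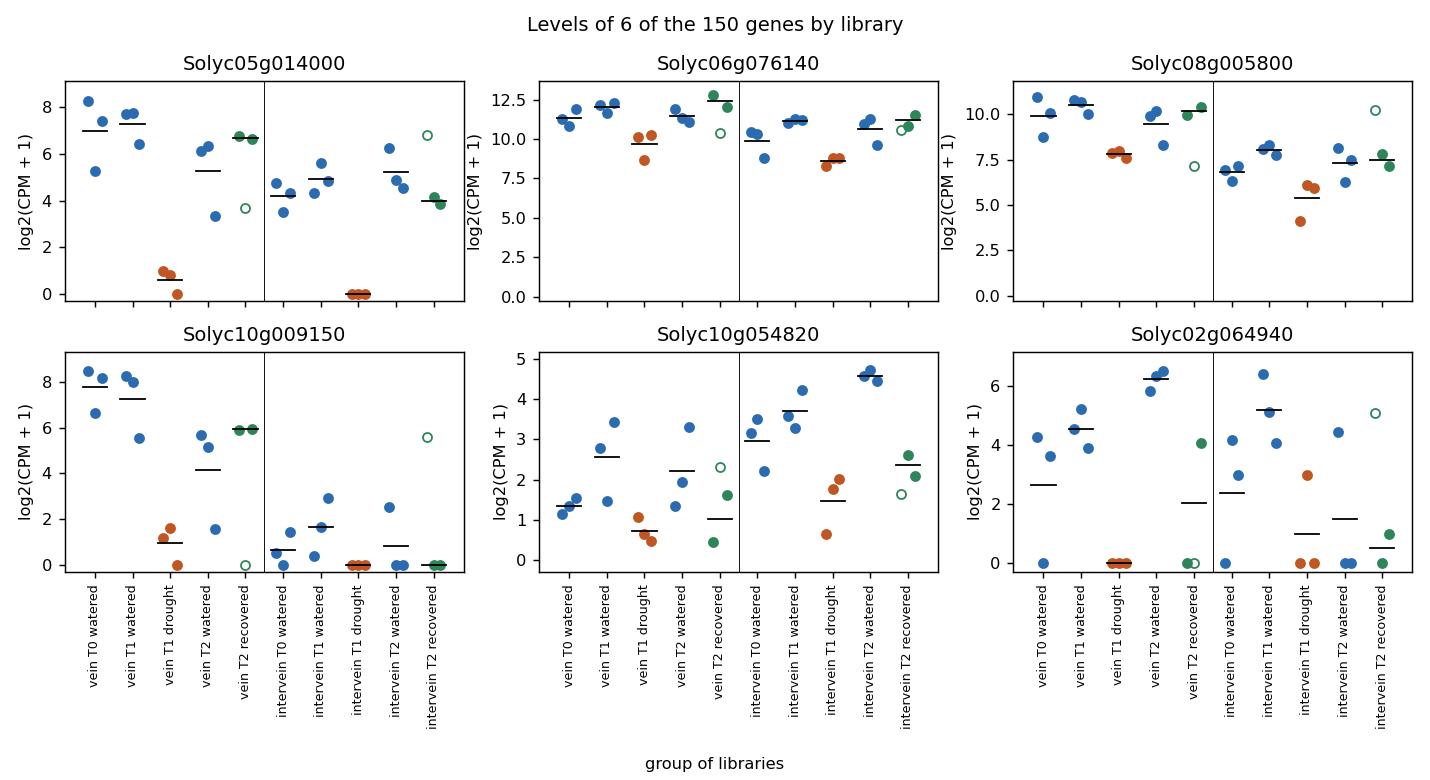
Level of 6 of the 150 genes in every library as log2(CPM + 1), by group, with vein left and intervein right of the line, watered in blue, drought in orange and recovered in green, black bars for the mean of the libraries used and open symbols for the pair left out. Drought libraries are mostly the lowest of each tissue, and for Solyc10g009150 the open symbols sit at 0 CPM in vein and 46.5 CPM in intervein, unlike the other recovered libraries of each tissue.

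In the libraries left out at T2 more of the genes were nearer to the other tissue than to the labelled one, in about the proportion of the reference genes. In the library labelled vein T2 recovered 2, 114 of the 150 were closer to the recovered intervein mean than to the recovered vein mean (76%, against 74.4% of the reference genes) and 34 the reverse, and 94 were above the vein drought mean. In the library labelled intervein T2 recovered 1, 95 were closer to the recovered vein mean (63.3%, against 64.1%) and 53 to the recovered intervein mean, and 143 were above the intervein drought mean.

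The identifiers carry a chromosome number. The genes came from all 12 chromosomes and from unplaced sequence, with 16 on chromosome 3 (10.7%, against 10.5% of the reference genes), 16 on chromosome 9 (10.7%, against 7.11%), 15 on chromosome 10 (10%, against 6.5%) and 13 on chromosome 1 (8.67%, against 13%). In 6 cases a pair of the genes lay within 5 identifiers of each other. Solyc02g080190 and Solyc02g080200 were adjacent identifiers, with means of 320 and 211 CPM in watered vein at T1, 18.7 and 10.9 CPM in drought vein, and 13.0 and 5.51 CPM in watered intervein. Where neighbours are near-identical copies, reads may have been divided between them, which was not tested.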

How the data were processed

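Per the labels' protocols, stranded mRNA libraries of 30 tomato leaf samples were sequenced as a pool, with single reads 75 nt long. The tools named in the submitters' processing notes are HISAT2 2.1.0, StringTie 1.3.3b, FastQC 0.11.5 and DESeq2 1.20.0. The deposited values are raw whole-number counts per gene and library, without normalization. Not given in the sources used here are the genome build and the treatment of reads that map to several genes. Genes with near-identical copies and overlapping genes are therefore uncertain. The authors' own comparison columns were not used. Each of the 30 count columns carried a sample's name, and 0 were unmatched.

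CPM were computed with the column total of each library, over all rows, and a pseudocount of 1 CPM was used for ratios. Counts were tested in R 4.3.3 with edgeR 4.0.16 (filterByExpr on the group, TMM scaling, glmQLFit and glmQLFTest, two-sided) in a single fit of 28 libraries with a coefficient per group and 18 residual degrees of freedom. The fit kept 19893 rows with 99.960% of all counts and left out vein T2 recovered 2 and intervein T2 recovered 1. The Benjamini-Hochberg adjustment ran over all tested rows of each comparison, and calls were made at an adjusted p under 0.05. The SE of a log2 fold change is its absolute value divided by the square root of the quasi-likelihood F statistic. It was not estimated separately. The test was tried on simulated counts with known changes. DESeq2 1.42.0, other scalings, no filter, all 30 libraries, the compared groups alone, replicate blocks and leaving out each library were alternatives. TMM factors ran from 0.608 to 1.26. Limits from 0 counts take 3 counts over the group and, like all counts here, cover counting error only.

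The members and the tests were chosen with earlier results of these data known. Genes named in the text were taken by rank value, by level, by size of the called tissue differences and at the threshold of the rule, with the number lowered because the identifiers have no names. Lists of gene families and cell type markers, written as patterns on gene descriptions, held 0 genes, since none of the identifiers occurs among the 41476 genes of the reference (assembly SLM_r2.1, 0 matches), and none was tested.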

Additional observations from a re-analysis of the deposited data

Results flagged for a closer look

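The summed level of the 150 genes in the library labelled intervein T2 recovered 1, which the main comparisons leave out, was 12511 CPM, above the highest watered intervein library at T2 (8708 CPM). It is listed here because it is a signal in data outside those comparisons. This library's tissue score of 0.49 lay near the vein range, and the part of that in the sum was not tested.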

How the results depend on the processing

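Of the 150 genes, 67 were chosen again with a pseudocount of 0.1 CPM, 90 with 5 CPM and 85 without the exclusion at T2, an alternative added after the data were seen, as were scaling by totals alone and totals of Solyc rows only. Leaving out a T1 library kept 113 to 137. The calls at T0 were 24, with 15 under a replicate block by plant (the tissues of a condition paired by number), 42 with DESeq2 and 12 to 25 without single libraries. The 11 calls in watered leaf at T2 became 0 with all 30 libraries, 2 with the block by plant, 29 with DESeq2 and 1 to 8 without single libraries. The 38 vein calls at T1 became 19 with all 30 libraries, 102 with DESeq2 and 7 to 34 without single libraries. The 79 intervein calls at T1 became 51 with totals alone, 0 with the compared groups alone, 123 with DESeq2 and 27 to 67 without single libraries. DESeq2 called 3 genes in intervein at T2 and 3 in recovered intervein against T0, and 1 for the difference of the T1 responses, where edgeR called 0. Without single libraries the T2 responses, recovered leaf against T0 and both differences of responses stayed at 0 calls. The cause was not tested in any of these. A replicate block on the number alone gave 24 calls at T0, 10 in watered leaf at T2, 34 in vein and 67 in intervein at T1. Same-numbered tissues of a condition correlated between -0.17 and 0.182 in their deviations from the group means, and not every pair passed 0.1, so the numbers were not taken to pair them. Of the calls for genes named in the text, none changed direction under the alternatives run. Without single libraries 35 of their values lost the call and 43 kept their status, and under other settings 21 lost it and 75 kept their status.

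Depth limits the low genes most: in drought leaf 37 of the 150 in vein and 48 in intervein had a mean under 1 CPM.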
